A study of Homo sapiens with 6 samples.

Results

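The SOX genes encode transcription factors that bind DNA through an HMG box, a domain that fits into the minor groove and bends the helix. The 10 genes described here are SOX2, SOX4, SOX5, SOX6, SOX8, SOX9, SOX11, SOX12, SOX13 and SOX18, which were read by symbol from a table of 26255 genes. They were chosen by family around SOX9, a gene selected on its own measured FPKM in this comparison, where it was already known to be lower after Ephexin1 depletion. The SOX9 values are therefore given as a description with no test. No threshold on the measured values defines the list. All 10 genes are listed, of which 8 had FPKM high enough to be tested and SOX8 and SOX11 did not.

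The experiment compared H1299 cells, a human lung cancer line, that carried a control shRNA (shControl, 3 libraries) with H1299 cells that carried an shRNA against Ephexin1 (shEphexin1, 3 libraries), both expressed from the U6 promoter of a pSilencer 2.1 plasmid. Both groups carried the same vector backbone and were grown in the same medium. Stable knockdown clones are described for this study, and the 3 shEphexin1 libraries share a label stem, so they may be repeats of 1 clone. The study describes its experiments in general as repeated, but neither that statement nor the labels tie these libraries to separate cultures, and the p values may then measure only the spread between these libraries.

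SOX proteins are sorted into groups by the likeness of their HMG boxes. SOX2 (group B1) keeps stem cells undifferentiated and marks the proximal airway epithelium of the developing lung. SOX4, SOX11 and SOX12 (group C) act in progenitors of many tissues, and SOX5, SOX6 and SOX13 (group D) lack a known activation domain and often work as partners of other factors. SOX8 and SOX9 (group E) direct cartilage, neural crest and gonad development, and SOX9 also marks the distal tips of the branching lung. SOX18 (group F) acts in blood and lymphatic vessels.

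Expression is given in FPKM, fragments scaled to transcript length and library size, as the authors calculated it for each gene and library. Fold changes were fitted on log2(FPKM + 0.1) with limma, an empirical Bayes linear model, over the 16020 genes that reached 0.1 FPKM in 3 or more of the 6 libraries. A gene was called where its Benjamini-Hochberg adjusted p did not exceed 0.025 and the groups differed 2-fold or more (SE, the standard error of the model). At these thresholds 1.89% of all genes tested were called. A value of 0 is given as listed: even H3F3A, a histone gene that every cell uses, had 0 in each of the 6 libraries. The files give no read counts. In genes with 1 annotated transcript the lowest values pile up at a step that would fit 1 fragment, and this step was used to estimate the fragments behind a value. Replicate 2 of both groups stood apart from replicates 1 and 3. Across genes, its deviation from the group mean fell with the GC content of the transcript (Spearman's rho was -0.701 for the control and -0.774 for the knockdown library), whereas that of the other 4 libraries rose with it (rho from 0.341 to 0.68, not independent of the former because deviations within a group sum to 0). Values for replicates 1 and 3 alone are therefore given where they bear on a result. Ephexin1 itself, listed as NGEF, measured 13.3, 11.7 and 16.4 FPKM in the controls against 9.81, 8.25 and 10.5 FPKM after depletion, which is 68.9% of the control mean. Its log2 fold change was -0.53 (SE 0.163, limma adjusted p = 0.103), so the target mRNA was lower in all 3 knockdown libraries but was not called. Its adjusted p was 0.00284 with a replicate block, 0.00572 with a term for replicate 2 and 0.00059 with a correction for GC content and length (log2 fold change -0.62), where the fold stayed under 2.

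Vimentin (VIM) was at 1979 to 2670 FPKM and the epithelial keratin KRT18 at 36.3 to 109 FPKM over the 6 libraries. The 5 blood cell markers summed to 0.207 to 1.00 FPKM in the controls and 0.556 to 1.57 FPKM after depletion, with PTPRC and CD3E listed at 0 in every library, and LYZ, the highest, and CD14 not called or not tested. The 6 fibroblast markers summed to 0.396 to 0.586 and 0.573 to 0.873 FPKM, with COL1A2 and LUM listed at 0, DCN at a log2 fold change of 0.026 and COL1A1 at 0.87 (limma adjusted p = 0.979 and 0.174). KRT8 and KRT18 were lower in every shEphexin1 library than in every shControl library, with log2 fold changes of -1.07 (SE 0.210, limma adjusted p = 0.0304) and -0.94 (SE 0.214, limma adjusted p = 0.0439), and neither was called.

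Apart from SOX9, 7 of the 10 SOX genes were tested, and 2 of them, SOX4 and SOX2, were called, both lower in shEphexin1. Of all genes tested, 0.999% were called lower and 0.893% higher. SOX9, chosen on these values, also met the thresholds and is not counted. In these bulk samples, fewer cells with the mRNA and less mRNA per cell cannot be told apart. SOX5 was lower in each depleted library without being called, and SOX12, SOX13, SOX6 and SOX18 were not called (limma adjusted p from 0.307 to 0.919). The median log2 fold change over the 7 genes was -0.38, or -0.80 with SOX9 included, where the median of all genes tested was -0.0093. SOX15 and SOX10, tested but not among the 10 genes, are left out of these medians. Both were higher (log2 fold change 0.52 and 0.40) and not called, so the medians depend on which SOX genes were listed. For 3 of the 7 genes (SOX2, SOX4 and SOX5) no FPKM of one group reached into the other, where this held for 28.3% of all genes tested, and all 3 lay below the controls, as 15.4% of all genes tested did. Because the genes were gathered around SOX9 with results of this comparison known, these counts describe the list and are not evidence for it.

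**Figure D1:**
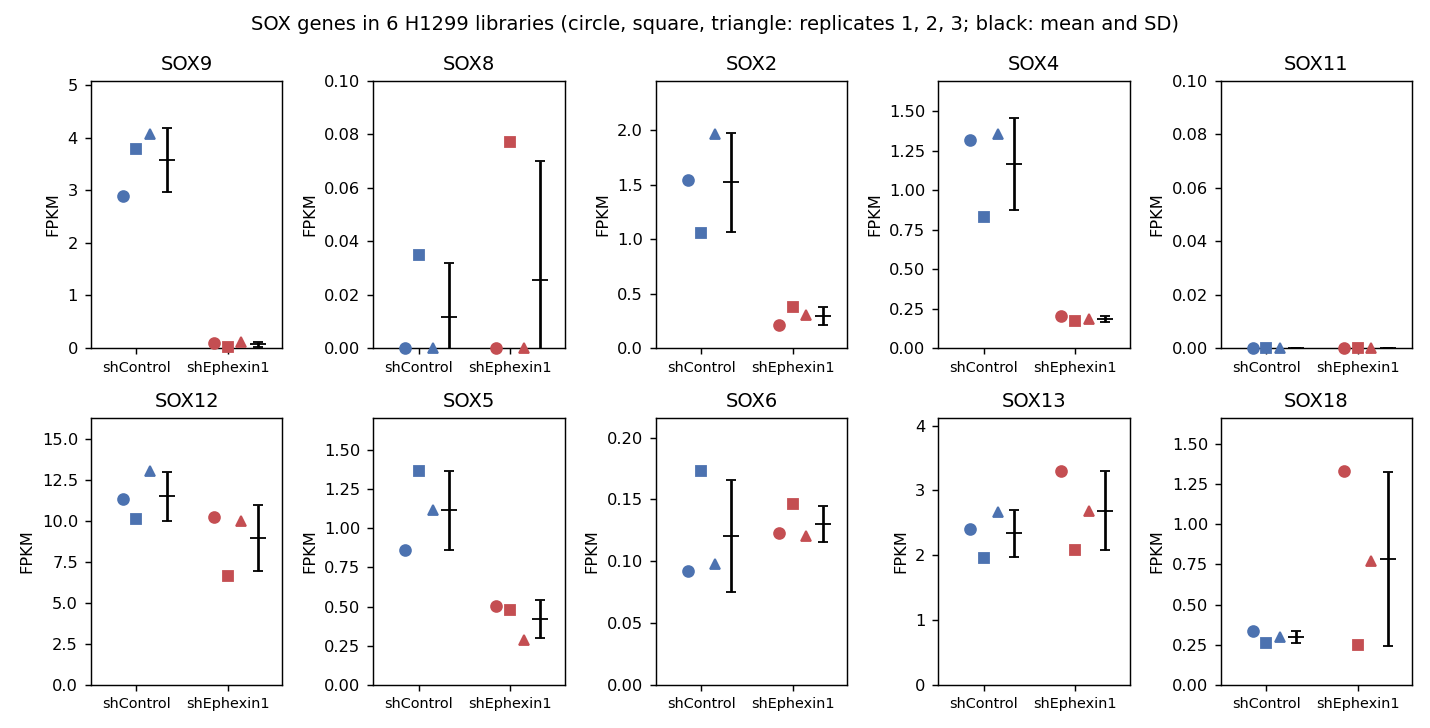
FPKM (linear axis from 0, a separate scale for each gene) of the 10 SOX genes in 3 shControl (blue) and 3 shEphexin1 (red) libraries. Circles, squares and triangles are replicates 1, 2 and 3, and the black marks give the mean and the SD of each group. The groups are apart for SOX9, SOX2, SOX4 and SOX5, SOX11 is listed at 0 throughout, and SOX18 is spread from 0.250 to 1.33 FPKM in shEphexin1.

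Promoter sequence from RefSeq (GRCh38.p14) was matched by symbol for 6 of the 10 genes, SOX2, SOX4, SOX5, SOX6, SOX12 and SOX13. Only the first window listed for each gene was used. SOX5, SOX6 and SOX13 have 23, 19 and 10 annotated transcripts, so they may have other start sites. Which start site these cells use was not tested. The 250 bases before the start site are printed, in the direction of transcription, for SOX2 and SOX4, which were called lower, for SOX5, which was lower but not called, and for SOX12, the most highly expressed SOX gene. Capitals mark CCAAT, the letters of the CCAAT box, and ACAAT, a core of the site that SOX proteins bind, each on either strand (ATTGG and ATTGT in reverse). No 2 matches share a base in these sequences.
SOX2, chr3:181711675-181711924, plus strand: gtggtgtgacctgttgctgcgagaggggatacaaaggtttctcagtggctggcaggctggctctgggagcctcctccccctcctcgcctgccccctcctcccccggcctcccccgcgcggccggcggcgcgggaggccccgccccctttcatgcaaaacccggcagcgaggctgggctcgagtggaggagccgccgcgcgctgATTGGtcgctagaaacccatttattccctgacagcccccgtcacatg
SOX4, chr6:21593501-21593750, plus strand: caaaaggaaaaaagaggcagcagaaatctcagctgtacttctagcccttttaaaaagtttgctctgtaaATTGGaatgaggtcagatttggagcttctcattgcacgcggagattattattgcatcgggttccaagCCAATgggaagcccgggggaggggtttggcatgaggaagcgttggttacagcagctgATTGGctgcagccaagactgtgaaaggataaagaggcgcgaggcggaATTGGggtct
SOX5, chr12:24562492-24562741, minus strand: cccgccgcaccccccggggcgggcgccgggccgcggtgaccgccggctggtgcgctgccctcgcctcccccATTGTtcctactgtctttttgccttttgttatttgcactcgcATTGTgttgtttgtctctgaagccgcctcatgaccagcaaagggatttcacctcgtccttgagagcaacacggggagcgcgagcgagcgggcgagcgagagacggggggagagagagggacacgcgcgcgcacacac
SOX12, chr20:325302-325551, plus strand: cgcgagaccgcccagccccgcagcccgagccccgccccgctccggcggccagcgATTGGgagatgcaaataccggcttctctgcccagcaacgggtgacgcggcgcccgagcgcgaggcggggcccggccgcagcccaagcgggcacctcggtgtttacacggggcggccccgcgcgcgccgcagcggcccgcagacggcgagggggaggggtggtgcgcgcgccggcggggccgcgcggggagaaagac
The SOX4 window held 4 matches to CCAAT, SOX2 and SOX12 held 1 each and SOX5 held 0. Among 35116 promoter windows of the same length in the table, 32.0% held at least 1 match and 0.874% held 4 or more. SOX5 held 2 matches to ACAAT, as did SOX6, whereas SOX2, SOX4, SOX12 and SOX13 held 0. Of all windows, 24.6% held at least 1 and 6.28% held 2 or more. These shares of all windows take no account of GC content. The GC content of the windows differed, with 68.8% in SOX2, 48.8% in SOX4, 65.6% in SOX5 and 79.2% in SOX12. A match of letters describes the window and does not show a bound site.

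SOX9 (ENSG00000125398.8_8, GRCh37 chromosome 17, 70117161 to 70122557, plus strand, 3 exons) had 2.90, 3.78 and 4.06 FPKM in the 3 control libraries. In the shEphexin1 libraries it was at 0.0928, 0.0222 and 0.111 FPKM. Every knockdown library was therefore far below every control library, and the knockdown mean was 2.11% of the control mean (3.58 ± 0.607 against 0.0754 ± 0.0470 FPKM, SD, n = 3 per group). The fitted log2 fold change was -4.41 (standard error 0.282). At the step of 1 fragment and the annotated transcript of 3931 bases, these values correspond to about 123, 154 and 146 fragments in shControl and about 3.28, 1.15 and 3.65 fragments in shEphexin1, so the size of the decrease rests on about 8.08 fragments in the depleted cells. The size also depended on the value added before the log: the log2 fold change was -2.08 with 1 FPKM and -5.59 with 0.01 FPKM. With replicates 1 and 3 alone it was -4.13, and with 1 library left out at a time it lay between -4.57 and -4.17.

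SOX8 (ENSG00000005513.10_6, chromosome 16, 1031770 to 1036979), a group E gene, shares with SOX9 a role in gonad and neural crest. It was listed at 0 in 4 libraries, at 0.0348 FPKM in shControl replicate 2 and at 0.0771 FPKM in shEphexin1 replicate 2. The 2 libraries with a value above 0 are those whose deviation fell with GC content, toward lower values at high GC content. The SOX8 transcript has a GC content of 64.0%. The part of GC content in these values was not tested, and the gene did not pass the filter. Together with SOX10, the remaining group E gene, the group summed to 3.12, 3.87 and 4.19 FPKM in the controls, most of it SOX9. After depletion it summed to 0.336, 0.254 and 0.319 FPKM, of which SOX10 was the largest part, at a mean of 0.202 FPKM against 0.0754 FPKM for SOX9.

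The antisense transcript SOX9-AS1, which overlaps SOX9 on the other strand, was at 0.0293, 0 and 0.0682 FPKM in shControl and was listed at 0 in the 3 shEphexin1 libraries, under the filter. The 5 genes tested whose profile over the 6 libraries lay nearest to that of SOX9, by the root mean square distance of log2(FPKM + 0.1), were GSDMD, SLC6A15, BICC1, SLC16A9 and CCND2. GSDMD, the pore-forming protein of pyroptosis, was nearest at a distance of 0.242, with 3.70, 3.17 and 5.12 FPKM in the controls against 0.0705, 0.0346 and 0.0923 FPKM after depletion. The amino acid transporter SLC6A15 followed at 0.440, the RNA-binding protein BICC1 at 0.457, the transporter SLC16A9 at 0.486 and cyclin D2 (CCND2) at 0.570. All 5 were between 2.31 and 5.27 FPKM in shControl and at or below 0.211 FPKM in shEphexin1. This likeness compares 6 values per gene and rests mostly on the difference between the groups.

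SOX4 (ENSG00000124766.7_7, chromosome 6, 21593982 to 21598850, plus strand, 1 exon), a group C factor often expressed in carcinomas, was at 1.32, 0.832 and 1.35 FPKM in shControl. It was at 0.204, 0.169 and 0.183 FPKM in shEphexin1. The groups did not overlap, and the knockdown libraries lay within a narrow range at 15.9% of the control mean (1.17 ± 0.291 against 0.185 ± 0.0179 FPKM, SD, n = 3 per group). The log2 fold change was -2.12 (SE 0.260, limma adjusted p = 0.00669). About 171 fragments stood behind the 3 control values and about 27.2 behind the 3 knockdown values. By library the latter were about 8.95, 10.8 and 7.46 fragments, too few for the narrow range to show a precise level. Replicates 1 and 3 alone gave -2.29 (adjusted p = 0.00591), and a pseudocount of 1 FPKM reduced it to -0.86, under the fold threshold.

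SOX2 (ENSG00000181449.4_10, chromosome 3, 181429713 to 181432224, plus strand, 1 exon), the group B1 stem cell factor, was at 1.55, 1.06 and 1.96 FPKM in shControl. It was at 0.210, 0.378 and 0.2999 FPKM in shEphexin1. Again each knockdown library was below each control library, at 19.4% of the control mean (1.52 ± 0.452 against 0.296 ± 0.0843 FPKM, SD, n = 3 per group). The log2 fold change was -2.02 (SE 0.293, limma adjusted p = 0.0117). About 115 fragments in shControl and about 23.5 in shEphexin1 stood behind it. Replicates 1 and 3 alone gave -2.39 (adjusted p = 0.00571), and a pseudocount of 1 FPKM gave -0.95. SOX2 lies within the noncoding gene SOX2-OT on the same strand, which measured 0.0674, 0.0924 and 0.0762 FPKM in the controls against 0.0311, 0.0667 and 0 FPKM after depletion, under the filter.

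The calls of SOX2 and SOX4 needed most of the libraries. Both were lost without shControl replicate 1 (adjusted p = 0.0756 for SOX2 and 0.0508 for SOX4), without shControl replicate 3 (0.0488 and 0.0345), without shEphexin1 replicate 1 (0.0576 and 0.0362) and without shEphexin1 replicate 3 (0.0463 and 0.0313). They were called without replicate 2 of either group. Their log2 fold changes stayed between -2.24 and -1.82 for SOX2 and between -2.33 and -2.01 for SOX4 when 1 library was left out, all values from limma. In the 4 fits that lost both calls, between 0.381% and 0.755% of all genes were called.

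SOX12 (ENSG00000177732.9_7, chromosome 20, 306196 to 310868, plus strand, 1 exon), a group C gene like SOX4, was the highest of the SOX genes in every library. It measured 11.4, 10.1 and 13.04 FPKM in the controls against 10.3, 6.63 and 9.99 FPKM after depletion. The groups overlapped, because shEphexin1 replicate 1 was above shControl replicate 2. The log2 fold change was -0.38 (SE 0.197, limma adjusted p = 0.308), with a 95% interval from -0.84 to 0.085. Correcting every library for transcript GC and length gave -0.61 (adjusted p = 0.00115), still under the fold threshold. The median of the 70 tested genes within 10 Mb of SOX12 was -0.39, and with it subtracted the SOX12 value was 0.0099. The antisense gene NRSN2-AS1 overlaps SOX12 on the other strand and measured 5.79, 5.67 and 6.48 FPKM in the controls against 4.93, 3.99 and 2.68 FPKM after depletion. The library kit keeps the strand, but the strand setting of the counting is not given in the sources used here, so reads of this pair may not be separated.

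SOX11 (ENSG00000176887.7_11, chromosome 2, 5832516 to 5841517), the third group C gene and a factor of neural progenitors, was listed at 0 in all 6 libraries. Its level therefore cannot be compared. Group C as a whole summed to 12.7 ± 1.73 FPKM in the controls against 9.15 ± 2.04 FPKM after depletion (SD, n = 3 per group), most of it SOX12.

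SOX5 (ENSG00000134532.20_17, chromosome 12, 23682438 to 24715478, minus strand), a group D partner of SOX9 in cartilage, was at 0.862, 1.37 and 1.12 FPKM in shControl. It was at 0.502, 0.478 and 0.283 FPKM in shEphexin1, so the groups did not overlap. The knockdown mean was 37.7% of the control mean, and the log2 fold change was -1.23 (SE 0.276, limma adjusted p = 0.0421), which did not pass the threshold on p. SOX5 was called with replicate 2 as a term of the model (adjusted p = 0.00984) and with the GC and length correction (adjusted p = 0.00631), but not with replicates 1 and 3 alone (adjusted p = 0.0582). The genes around it were lower as well: the 80 tested genes within 10 Mb had a median log2 fold change of -0.55. With that median subtracted, SOX5 was at -0.68 (adjusted p = 0.239). The part of the neighbourhood in the SOX5 value was not tested beyond this subtraction. For SOX9, SOX2 and SOX4 the corresponding medians were -0.28, -0.083 and 0.021, and the values with the median subtracted were -4.13, -1.93 and -2.14.

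SOX13 and SOX6, the other group D genes, were not called. SOX13 (ENSG00000143842.15_13, chromosome 1, 204042243 to 204096871) measured 2.40, 1.95 and 2.66 FPKM in the controls against 3.30, 2.08 and 2.69 FPKM after depletion, with a log2 fold change of 0.18 (SE 0.214, limma adjusted p = 0.673, 95% interval from -0.32 to 0.68). In both groups its lowest value was in replicate 2. SOX6 (ENSG00000110693.19_16, chromosome 11, 15987995 to 16761138) was near the filter, at 0.0918, 0.173 and 0.0974 FPKM in the controls against 0.123, 0.147 and 0.120 FPKM after depletion. Its log2 fold change was 0.076 (SE 0.312, limma adjusted p = 0.919), and the interval from -0.65 to 0.81 leaves changes of less than 2-fold possible in either direction. The difference between SOX5 and these genes was not tested.

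SOX18 (ENSG00000203883.7_8, chromosome 20, 62678935 to 62680992, minus strand, 2 exons), the vessel factor of group F, was at 0.335, 0.263 and 0.296 FPKM in shControl. In shEphexin1 it was at 1.33, 0.250 and 0.773 FPKM. Replicates 1 and 3 of the knockdown were above all controls, but replicate 2 was below all controls. The log2 fold change was 0.94 (SE 0.490, limma adjusted p = 0.307), with a 95% interval from -0.21 to 2.08. Replicates 1 and 3 alone gave 1.43 (adjusted p = 0.0341), which did not pass the threshold. SOX18 has the highest GC content of the 10 transcripts, at 69.3%, and replicate 2 is the library with the opposite GC trend in each group. The part of GC content in this spread was not tested beyond the GC and length correction, which gave 0.77 (adjusted p = 0.148). About 16.9 fragments stood behind the control values and about 40.4 behind the knockdown values. The 7 vessel cell markers were low and summed to 0.349 to 0.718 FPKM in the controls against 0.906 to 1.69 FPKM after depletion. CLDN5, a tight junction gene, made up most of that sum (0.342 ± 0.203 against 1.06 ± 0.328 FPKM, SD, n = 3 per group, log2 fold change 1.44, adjusted p = 0.0647 from limma). CDH5, KDR and TEK were each at 0 in at least 3 libraries, and CDH5 and VWF were highest in shEphexin1 replicate 1, at 0.276 and 0.280 FPKM. PECAM1 and KDR were lower on average after depletion, at 0.0359 against 0.0623 FPKM and 0.00447 against 0.0156 FPKM, under the filter. The part of these markers in the SOX18 value was not tested.

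**Figure D2:**
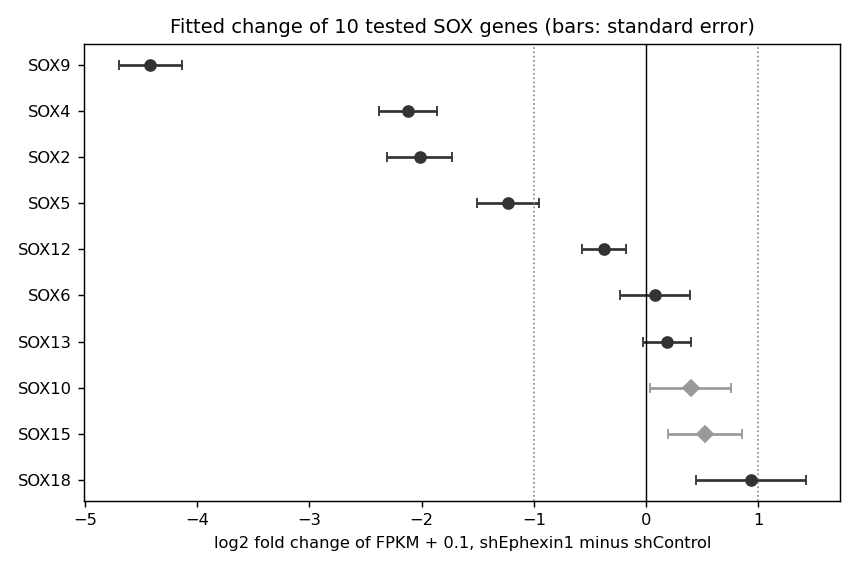
Fitted log2 fold change of FPKM + 0.1 (horizontal axis, shEphexin1 minus shControl) of the 8 SOX genes tested (black circles) and of SOX10 and SOX15 (grey diamonds). Bars are the standard error of the model, and dotted lines mark a 2-fold difference. SOX9 at -4.41, SOX4 at -2.12, SOX2 at -2.02 and SOX5 at -1.23 lie below the lower line, and the other genes lie between the lines.

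Expression per transcript length can be ordered over the 10 genes and the other 9 SOX genes examined (SOX1, SOX3, SOX7, SOX10, SOX14, SOX15, SOX17, SOX21 and SOX30). In shControl the order of mean FPKM was SOX12 (11.5), SOX9 (3.58), SOX13 (2.34), SOX15 (2.18), SOX2 (1.52), SOX4 (1.17), SOX5 (1.12) and SOX18 (0.298), followed by SOX10 and SOX6. SOX12 and SOX9 were each apart from the gene below them in all 3 libraries, whereas the ranges of neighbours from SOX13 to SOX5 overlapped. In shEphexin1 the order was SOX12 (8.96), SOX15 (3.25), SOX13 (2.69), SOX18 (0.785), SOX5 (0.421), SOX2 (0.296), SOX10 (0.202), SOX4 (0.185), SOX6 (0.130) and SOX9 (0.0754). SOX9 thus went from the second place to the tenth by mean FPKM. Its range in shEphexin1, 0.0222 to 0.111 FPKM, overlapped that of SOX21, the next gene, at 0 to 0.110 FPKM. The ranges of SOX15 and SOX13 overlapped in the knockdown, as did those of the neighbours from SOX18 to SOX4. SOX15, a group G gene, measured 2.56, 1.46 and 2.52 FPKM in the controls against 3.02, 2.09 and 4.65 FPKM after depletion, and its log2 fold change was 0.52 (SE 0.3302, limma adjusted p = 0.402). SOX10, the neural crest relative of SOX9 in group E, had a log2 fold change of 0.40 (SE 0.363, limma adjusted p = 0.574) at 0.0584 to 0.243 FPKM. The 7 remaining genes did not pass the filter, and 4 of them, SOX1, SOX3, SOX14 and SOX17, were listed at 0 in all libraries.

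Summed over the 19 genes, SOX expression was 23.7, 21.2 and 27.4 FPKM in the controls against 19.4, 12.6 and 19.3 FPKM after depletion. This separation was lost without SOX9, the gene chosen for its fall. Without it the sums were 20.8, 17.4 and 23.3 FPKM in the controls against 19.3, 12.6 and 19.2 FPKM after depletion, and the groups overlapped. Sums without SOX2, SOX4 or SOX5 were not made, so the separation is not shown to rest on SOX9 alone. SOX12 held between 47.7% and 48.0% of the sum over all 19 genes in shControl and between 51.6% and 53.0% in shEphexin1. SOX9 held 12.2% to 17.8% of it in shControl and 0.176% to 0.575% in shEphexin1. SOX2 held 5.00% to 7.17% in shControl and 1.08% to 2.99% in shEphexin1. SOX12, SOX13 and SOX15 together held 63.8% to 68.9% of the sum in shControl and 85.5% to 89.5% in shEphexin1.

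Genes with known links to SOX proteins were read from lists. Among 13 partners of SOX2 and pluripotency genes, 7 passed the filter, 1 was called lower and 0 were called higher. Of all genes tested, 0.999% were called lower and 0.893% higher. The log2 fold change was above 0 in 5 of the 7 and below 0 in 2, with a median of 0.21. With limma, 3 of the 7 had an unadjusted p under 0.05, where 23.3% of all genes tested had such a p. The gene called lower was KLF4, a zinc finger factor that acts with SOX2 in reprogramming. KLF4 measured 4.37, 3.67 and 5.43 FPKM in the controls against 1.61, 1.18 and 1.35 FPKM after depletion, with a log2 fold change of -1.63 (SE 0.201, limma adjusted p = 0.00685). Its call was lost without shControl replicate 1 (limma adjusted p = 0.050001), shControl replicate 3 (0.0292), shEphexin1 replicate 1 (0.0302) or shEphexin1 replicate 3 (0.0328). MYC, at 39.8 ± 5.07 and 35.8 ± 4.04 FPKM, and LIN28B, at 18.1 ± 2.30 and 18.7 ± 4.11 FPKM (SD, n = 3 per group, shControl first), were the most highly expressed of the list and had log2 fold changes of -0.15 and 0.036. POU5F1, the usual partner of SOX2, had a log2 fold change of 0.21 (adjusted p = 0.687) at a mean near 1 FPKM.

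Other sequence-specific HMG box genes, the TCF/LEF factors of Wnt signalling and the repressors HBP1, CIC and BBX, all passed the filter. Of these 7 genes 1 was called higher and 0 lower, where 0.893% and 0.999% of all genes tested were. The log2 fold change was above 0 in 4 and below 0 in 3, with a median of 0.16. TCF7 rose from 2.78, 3.09 and 3.37 FPKM to 6.52, 6.25 and 6.69 FPKM, a log2 fold change of 1.05 (SE 0.135, limma adjusted p = 0.00765). This value lies at the fold threshold: it was 0.95 after the GC and length correction and 0.87 with the median of neighbouring genes subtracted, and leaving out replicate 1 or 3 of either group raised the adjusted p to between 0.0272 and 0.0580. Named after their values were seen, LEF1 and TCF7L2 had log2 fold changes of 0.16 and -0.10, and TCF7L1 one of -0.58 (adjusted p = 0.239). HBP1, named in the same way, measured 17.3, 17.8 and 15.0 FPKM in the controls against 21.2, 24.6 and 21.2 FPKM after depletion. Its log2 fold change was 0.42 (SE 0.122, limma adjusted p = 0.0913). With limma, 2 of the 7 genes, TCF7 and HBP1, had an unadjusted p under 0.05. Of all genes tested, 23.3% had such a p. BBX at 31.2 ± 5.18 and 26.6 ± 5.12 FPKM and CIC at 22.1 ± 3.30 and 27.4 ± 6.10 FPKM (SD, n = 3 per group) were the highest of the list and were not called.

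Cartilage matrix genes, the classical targets of SOX9 with SOX5 and SOX6, summed to 3.30 to 4.25 FPKM in the controls and 3.81 to 5.05 FPKM after depletion. Of 13 genes, 7 passed the filter and 0 were called, with a median log2 fold change of 0.30. With limma, 2 of the 7 had an unadjusted p under 0.05, COL9A3 and COMP, named here after their values were seen, where 23.3% of all genes tested had such a p. ACAN, HAPLN1 and COL9A1 were listed at 0 in every library. COL27A1 was the highest, at 2.31 ± 0.434 and 3.09 ± 0.648 FPKM (SD, n = 3 per group), with a log2 fold change of 0.40 (adjusted p = 0.332), followed by MATN3 (0.29, adjusted p = 0.658). COMP had a log2 fold change of 0.94 (adjusted p = 0.210) at or below 0.235 FPKM. In shControl COMP measured 0.104, 0.0316 and 0 FPKM, and MATN1 0.0702, 0 and 0.0592 FPKM. Neither would have passed the filter without its shEphexin1 values. The p of COMP, its place among the 2 and the median of 0.30 are therefore not evidence of a change. COL9A3 measured 0.425, 0.272 and 0.552 FPKM in the controls against 0.154, 0.119 and 0.205 FPKM after depletion, with a log2 fold change of -0.97 (adjusted p = 0.120). Of 4 target genes of SOX4 and SOX11, TEAD2, EZH2 and TUBB3 passed the filter and 0 were called, with 1 (EZH2) at an unadjusted limma p under 0.05. TUBB3, a neuronal tubulin, was at 204 ± 51.9 and 160 ± 38.4 FPKM (log2 fold change -0.34, adjusted p = 0.459), TEAD2, a partner of YAP, at 11.4 ± 0.364 and 9.80 ± 1.04 FPKM (-0.21, adjusted p = 0.361), and EZH2, a histone methyltransferase, at 22.2 ± 1.32 and 28.1 ± 2.56 FPKM (0.34, adjusted p = 0.126), each SD with n = 3.

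**Figure D3:**
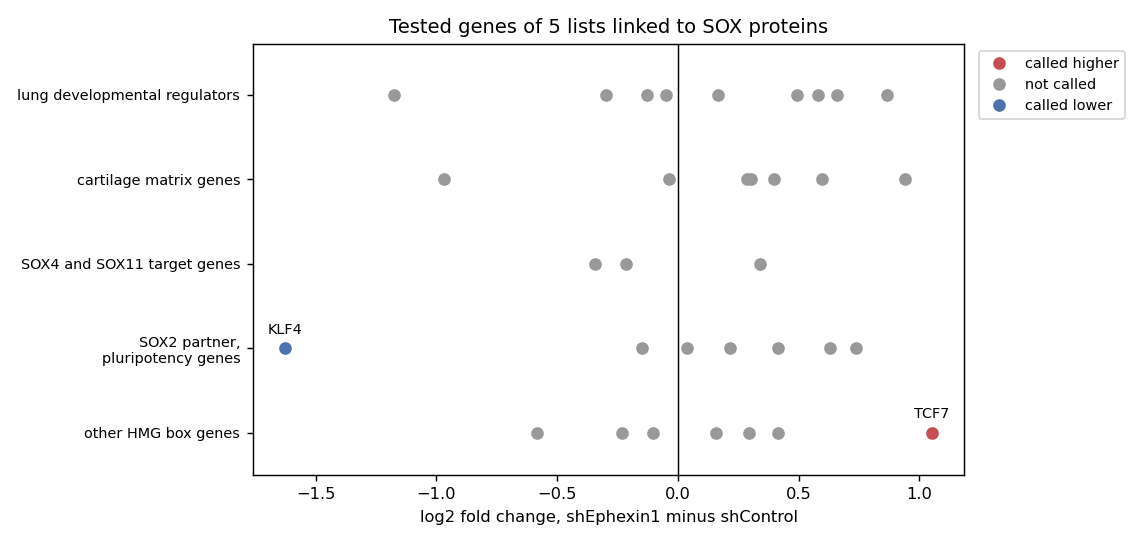
Log2 fold change (horizontal axis, shEphexin1 minus shControl) of each tested gene in 5 lists linked to SOX proteins, 1 row per list. Blue marks a gene called lower, red a gene called higher and grey a gene not called. KLF4 at -1.63 and TCF7 at 1.05 are the called genes, and the other genes lie between -1.18 and 0.94.

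**Figure D4:**
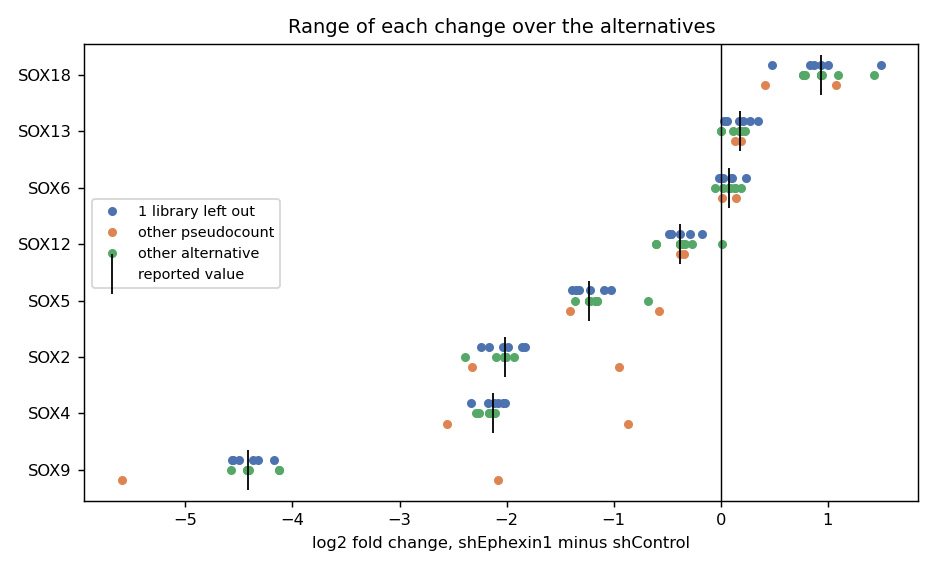
Log2 fold change (horizontal axis) of the 8 SOX genes tested in the reported fit (black line) and in the alternatives: 1 library left out (blue), other pseudocounts (orange) and other choices (green). SOX9, SOX4, SOX2 and SOX5 stay below 0 in all of them, and SOX6, SOX12 and SOX13 come to lie on both sides of 0.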

How the data were processed

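Stranded libraries of total RNA were sequenced on an Illumina NovaSeq. Reads were aligned by the authors to GRCh37 with TopHat, and the deposited FPKM came from Cuffdiff with geometric scaling and pooled dispersion. Versions in the submitters' processing notes are TopHat2 2.0.13, Cufflinks 2.2.1 and bcl2fastq 2.20. The gene annotation and any filter are not given in the sources used here. Columns were matched to samples by library name, and groups were taken from the sample titles.

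The 16020 genes that reached 0.1 FPKM in 3 libraries were fitted as log2(FPKM + 0.1) by limma 3.58.1 under R 4.3.3, with a mean trend in eBayes, and p values were adjusted over all of them by Benjamini-Hochberg. Gene positions, lengths and GC content came from GENCODE 44 on GRCh37, with 23799 of 26253 distinct names matched, 1377 through an older symbol, and promoters from RefSeq (GRCh38.p14). No coordinates were converted. Fragment numbers were estimated as FPKM times transcript length over the modal lowest value of genes with 1 transcript longer than 1 kb, and are approximate. The code was tested on simulated data. Figures were drawn with matplotlib 3.10.9.

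The SOX genes and the gene lists were chosen with earlier results of these data known. Named by rule were the 10 genes, NGEF, other SOX genes past the filter, the called genes and the 2 of highest mean FPKM in each list, and the 5 profiles nearest to SOX9; further genes of a list were named after their values were seen. Alternatives were other pseudocounts, filters, scalings, eBayes settings and thresholds, a replicate block, a term for replicate 2, replicates 1 and 3 alone, each library left out, a loess correction (span 0.3) for GC content and length, and subtraction of the median within 10 Mb.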

Additional observations from a re-analysis of the deposited data

How the results depend on the processing

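With SOX9 included, the number of SOX genes called was 1 with a pseudocount of 1 FPKM and between 1 and 3 with 1 library left out. Without SOX9, which was chosen on these values, it was 0 and between 0 and 2, against 2 as reported. The log2 fold change of SOX9 was -2.08 with a pseudocount of 1 FPKM and -5.59 with 0.01 FPKM. Of all genes tested, 303 were called, and 139 with a pseudocount of 1 FPKM, 556 with a replicate block, 564 with a term for replicate 2, 536 with the GC and length correction, 522 with that correction and a replicate block, 464 at an adjusted p of at most 0.05, 546 without a fold threshold, and between 61 (without shControl replicate 1) and 316 (without shEphexin1 replicate 2) with 1 library left out. Genes called higher were 143 of the 303, 309 of the 556, 312 of the 564, 278 of the 536 and 274 of the 522. Libraries with the same replicate number deviated together in replicates 2 and 3 (r = 0.43 and 0.327) but not in replicate 1 (r = 0.0914), so the numbers were not taken as pairs. Each library nevertheless correlated best with its own number, and replicate 2 of both groups shared the GC trend. Under the replicate block 3 SOX genes besides SOX9 were called, with SOX5 added (adjusted p = 0.0156). Changes of sign were seen only in genes that were not called: SOX6 was at -0.056 with quantile normalization and between -0.015 and 0.24 with 1 library left out (lowest without shControl replicate 1), SOX12 at 0.0099 with the neighbourhood median subtracted, and SOX13 at -0.00026 after the GC and length correction, with or without a replicate block. A filter of 1 FPKM left SOX4, SOX5, SOX6 and SOX18 untested, and SOX2 was then called. SOX2 passed that filter only through its shControl values, where it is high, so this call adds no support. Few fragments limit the sizes given for SOX9, SOX2 and SOX4, with about 8.08, 23.5 and 27.2 fragments in shEphexin1. They also limit that of SOX18, with about 16.9 in shControl. For SOX6, near the filter, and SOX8, under it, fragments were not estimated, and low FPKM limits their values.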

Other observations

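Of 15 regulators of lung development, 9 passed the filter and 0 were called by limma, 5 had an unadjusted p under 0.05 against 23.3% of all genes tested, and log2 fold changes ran from -1.18 to 0.87. FOXA1 and TP63, at the ends of that range, were named after their values were seen. FOXA1, a pioneer factor of airway epithelium, measured 0.882, 0.846 and 1.04 FPKM in the controls against 0.421, 0.359 and 0.283 FPKM after depletion, so the groups did not overlap (log2 fold change -1.18, standard error 0.228, adjusted p = 0.0297 from limma). TP63, a marker of airway basal cells, measured 0.0917, 0.0731 and 0.0381 FPKM in the controls against 0.181, 0.215 and 0.214 FPKM after depletion (log2 fold change 0.87, adjusted p = 0.144). The filter of 0.1 FPKM admitted TP63 only through its shEphexin1 values. Its p and its place among the 5 are therefore not evidence of a change. The ETS factors ETV5 and ETV4, which accompany SOX9 in the distal lung tip, were the most highly expressed of the list. ETV5 averaged 33.5 ± 0.397 FPKM in the controls against 32.5 ± 0.851 FPKM after depletion, and ETV4 11.5 ± 3.14 and 10.3 ± 1.62 FPKM (SD, n = 3 per group). Their log2 fold changes were -0.047 (95% interval from -0.26 to 0.17) and -0.13 (95% interval from -0.67 to 0.42). The lung lineage factors NKX2-1 and FOXA2 were listed at 0 in all 6 libraries.

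Of the noncoding genes that lie near SOX genes, 1 of 4 listed passed the filter, SOX21-AS1, with 0.240, 0.377 and 0.358 FPKM in the controls against 0.156, 0.116 and 0.261 FPKM after depletion (log2 fold change -0.63, standard error 0.317, adjusted p = 0.286 from limma).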
